A study of Mus musculus with 5 samples.

Results

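The hemoglobin genes and 3 transcription factors that govern which of them is used were examined in liver RNA of E18.5 mouse embryos, late in gestation. The genes were chosen by symbol for their place in the globin switch, with earlier results of these data known. Of these genes, 10 of 10 were found among the 23022 genes of the comparison table. They comprised the embryonic beta-like globins Hbb-y and Hbb-bh1, the embryonic alpha-like globin Hba-x, the adult alpha globins Hba-a1 and Hba-a2, the adult beta globins Hbb-bs and Hbb-bt, and the regulators Bcl11a, Sox6 and Zbtb7a. The 3 4N libraries came from Hhex knockout embryos into which td-Tomato positive tetraploid embryonic stem cells (4N-ESCs) had been injected as blastocysts. The 2 WT libraries came from normal embryos of that age. Hhex is a homeobox gene that the liver needs to form, and td-Tomato is a fluorescent protein that marks the injected cells. Ploidy, the origin of the cells, the Hhex genotype of the host and the injection therefore differ together between the groups and cannot be told apart. The labels do not say which blood cells the host embryos kept, from which strain the cells and embryos came, or how the libraries relate to litters, so the p-values measure only the spread between these libraries.

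Hemoglobin joins alpha-like to beta-like globin chains, and each kind is encoded by a cluster of genes that are used in turn during development. In mice, primitive red cells of the yolk sac make the embryonic chains, and definitive red cells, formed in the fetal liver and later in the bone marrow, make the adult ones. Bcl11a, Sox6 and Zbtb7a (also called LRF) are repressors of embryonic-type beta globins in definitive red cells, as shown in mice for Bcl11a and Sox6 and in mouse and human cells for Zbtb7a. The fetal liver at this stage is both a hepatic and a blood-forming organ.

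The promoters of the globin genes are shown because activators and repressors of the globin switch act there. Each line gives the 120 bases before the transcription start from RefSeq, build GRCm38.p6, 5′ to 3′ on the gene's own strand. Capitals mark matches, on either strand, to CACCC (the letters bound by Klf1-type activators), CCAAT (bound by factors such as NF-Y), GATAA (bound by GATA factors), TATAA and TGACCA (the letters bound by BCL11A at the human fetal globin promoters).
Hbb-y, chr7:103853208-103853327, minus strand: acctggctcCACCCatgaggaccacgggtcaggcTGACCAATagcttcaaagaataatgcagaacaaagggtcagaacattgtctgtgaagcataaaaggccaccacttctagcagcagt
Hba-x, chr11:32276480-32276599, plus strand: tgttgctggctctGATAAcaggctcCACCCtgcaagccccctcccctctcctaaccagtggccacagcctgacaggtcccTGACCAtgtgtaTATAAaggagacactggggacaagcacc
Hba-a1, chr11:32283552-32283671, plus strand: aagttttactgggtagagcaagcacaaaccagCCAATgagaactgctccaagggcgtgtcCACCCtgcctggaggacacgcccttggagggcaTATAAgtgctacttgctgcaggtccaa
Hbb-bs, chr7:103827929-103828048, minus strand: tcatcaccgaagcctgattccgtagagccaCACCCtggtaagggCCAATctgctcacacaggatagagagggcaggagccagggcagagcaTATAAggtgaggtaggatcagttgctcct
Hbb-bt, chr7:103813924-103814043, minus strand: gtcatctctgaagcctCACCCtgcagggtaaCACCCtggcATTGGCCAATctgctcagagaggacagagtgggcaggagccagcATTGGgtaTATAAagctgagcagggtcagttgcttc

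Among the globin promoters in the RefSeq table, TGACCA was found in the 250 bases before the start of Hbb-y and of Hba-x, and in none of the windows of Hba-a1, Hba-a2, Hbb-bs and Hbb-bt. In Hbb-y the match begins at position -86 from the transcription start and overlaps a CCAAT match at -83, and in Hba-x it begins at -40. Of all 32851 promoter windows of this length, 11.4% hold TGACCA on either strand. CACCC lies in each of these 6 globin windows, and 52.0% of all windows hold it. CCAAT is in 33.8%, TATAA in 22.8% and GATAA in 22.6% of all windows. Such a match is a description of letters and says nothing of binding in these livers. The windows of Hba-a1 and Hba-a2 have 0 differences over the 247 bases they share, so only Hba-a1 is shown.

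The adult copies are near-identical in their coding sequence as well, which bears on how far their values can be told apart. Over 429 coding bases, Hba-a1 and Hba-a2 of GENCODE M21 differ at a single base, C381T, counted from the A of the start codon. Over 444 coding bases, Hbb-bs and Hbb-bt also differ at a single base, C417T. The stretches of 31 coding bases around these differences are shown with the differing base in capitals.
Hba-a1, chromosome 11: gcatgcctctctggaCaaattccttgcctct
Hba-a2, chromosome 11: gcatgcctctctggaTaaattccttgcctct
Hbb-bs, chromosome 7: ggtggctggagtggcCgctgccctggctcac
Hbb-bt, chromosome 7: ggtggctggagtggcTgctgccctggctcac

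Of all fragments of 50 bases in the Hba-a2 transcript, 86.9% also occur in that of Hba-a1, and 58.3% of those of Hbb-bt occur in Hbb-bs. The sources used here do not say how reads that match both copies were counted, so the values of Hba-a1 against Hba-a2, and of Hbb-bs against Hbb-bt, are uncertain. The embryonic genes have no such copy among the 10 genes. Hbb-y shares 76.4% of its coding bases with Hbb-bh1 and 74.3% with Hbb-bs, Hba-x shares 62.0% with Hba-a1, and 0.0% of 50-base fragments are common to any of these pairs. Hbb-bs and Hbb-bt are also the adult pair of 1 of the haplotypes of laboratory mice. The pair of another, Hbb-b1 and Hbb-b2, was looked for and is not among the 23022 genes. How reads of that pair would have been counted is unknown.

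The data are the authors' comparison of the groups. It gives, for each gene, the mean normalized count over all 5 libraries, the log2 fold change with its standard error (SE), and a Wald test with a Benjamini-Hochberg adjusted p. A call is an adjusted p under 0.05 in that table. No single-library values were analysed here, so per-sample values and depth are unknown. Summed over all genes, the means come to about 78100000. The level in each group was therefore solved from the overall mean and the fold change, weighting the groups by 3 and 2 libraries, and such group means carry no SD of their own. Fold changes are 4N over WT. That direction is not stated in the table and was read from genes that have no reads in 1 group. A count model with a lowest fitted mean of 0.5 and equal library sizes was assumed for this. Under it, an empty group of 2 libraries cannot give a standard error under 1.44. Such smaller errors occurred for 12 of 247 empty-group genes with negative values and for 0 of 606 with positive values.

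The embryonic globins were higher in 4N livers, and all 3 passed the test, in a table where 15.3% of genes were called in either direction. Hbb-y, the main embryonic beta-like chain, had a solved mean of 1297 normalized counts in 4N livers, against 1.05 in WT livers. Its log2 fold change was 10.27 in the authors' deposited table (SE 1.496, Wald test adjusted p = 4.1e-10), with a 95% interval of 7.33 to 13.20. Of the 23022 genes, 3 had a higher fitted fold change. This rank is of fitted values only, since the 606 genes with no reads in WT livers have no measured fold. Hba-x, the embryonic alpha-like chain also called zeta, had 809 normalized counts in 4N livers and 6.004 in WT livers. In the authors' deposited table its log2 fold change was 7.07 (SE 1.60, adjusted p = 1.9e-04 by the Wald test), with an interval of 3.93 to 10.22. Hbb-bh1, the other embryonic beta-like chain and the earlier of the pair in development, had 208.7 normalized counts in 4N livers and 18.45 in WT livers. The authors' deposited table gave it a value of 3.50 (SE 0.69, adjusted p = 1.1e-05 by the Wald test), and the interval ran from 2.14 to 4.85. The intervals of Hbb-y and Hbb-bh1 do not overlap, but the difference between genes was not tested, since the table gives no covariance between them. As background to these calls, 7.94% of all genes of the table were called higher and 7.41% lower in 4N livers.

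The WT level of Hbb-y rests on about 2 reads. Among 182 genes with a WT mean under 1.4 and a 4N mean over 8, other than those empty in WT, the solved WT means fell on steps. Of these, 46 lay between 0.501 and 0.529 and 136 between 0.969 and 1.09, as 1 and 2 reads over 2 libraries would give. Hbb-y lies on the upper step. With the exact Poisson interval of 2 reads (0.242 to 7.22), which covers counting error only, its log2 fold change ranges from 8.41 to 13.31. Hba-x and Hbb-bh1 lie above these steps.

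**Figure D1:**
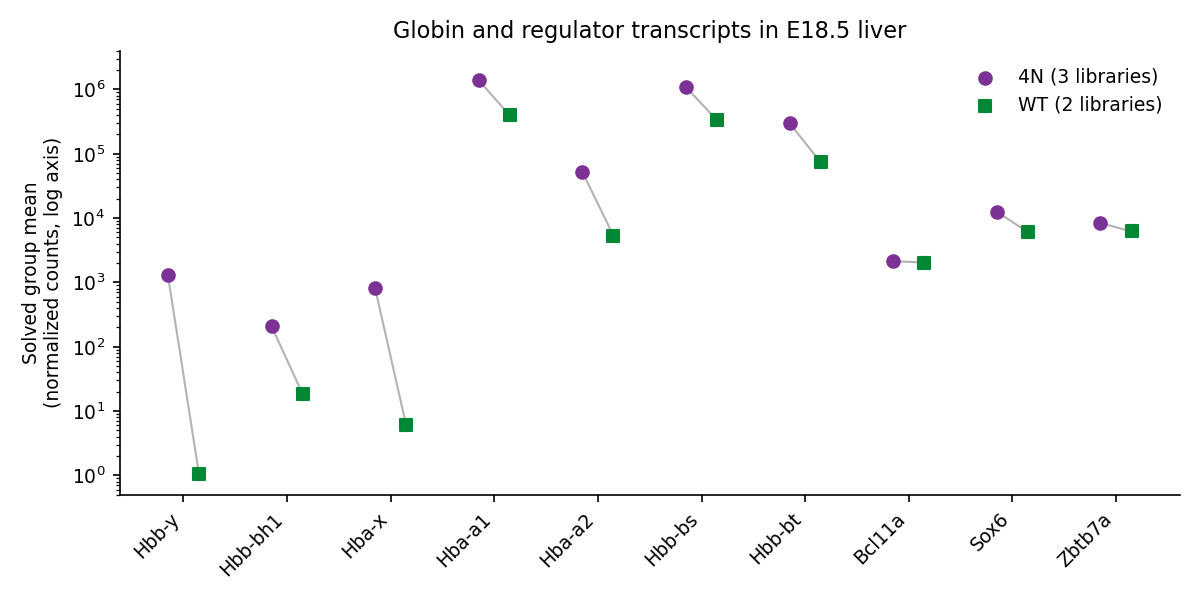
Solved group means in normalized counts (log axis) of the 7 globin genes and 3 regulators, with 4N (3 libraries, circles) left of WT (2 libraries, squares) and a line joining the groups of a gene. Each globin is higher in 4N, with 1297 against 1.05 for Hbb-y, and Bcl11a has 2140 in 4N and 2037 in WT; the group means carry no error bars because single libraries were not used.

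The embryonic globins remained a small part of the globin transcripts in both groups. Per length of mRNA, Hbb-y and Hbb-bh1 together made up 0.111% of beta-like transcripts in 4N livers and 0.00502% in WT livers. Hba-x made up 0.0485% of alpha-like transcripts in 4N livers and 0.00131% in WT livers. Within the embryonic beta-like pair the order of levels differed between the groups. Per length, Hbb-y stood at 6.02 times the level of Hbb-bh1 in 4N livers and at 0.0553 times in WT livers. The ratio of embryonic beta-like to embryonic alpha-like transcripts was 2.37 in 4N livers and 4.24 in WT livers. With coding length in place of mRNA length it was 1.80 in 4N livers and 3.14 in WT livers. These shares and ratios come from solved group means, so they have no error and no test.

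The adult globins were also higher in 4N livers, each by a smaller fitted factor than any embryonic one, and all 4 passed the test. That difference in size between genes was not tested. Hba-a1, an adult alpha globin gene and the fifth most abundant transcript of the table, had 1388055 normalized counts in 4N livers and 394061 in WT livers. Its log2 fold change in the authors' deposited table was 1.82 (SE 0.39, adjusted p = 5.8e-05 by the Wald test). Hbb-bs, the main adult beta globin here, had 1087665 normalized counts in 4N livers and 331365 in WT livers. The authors' deposited table gave it 1.71 on the log2 scale (SE 0.20, adjusted p = 1.6e-15 by the Wald test). Hbb-bt, its near-identical neighbour, had 299567 normalized counts in 4N livers and 73510 in WT livers, a change given as 2.03 in the authors' deposited table (SE 0.27, adjusted p = 2.1e-12 by the Wald test). Hba-a2, the copy of Hba-a1, had 51989 normalized counts in 4N livers and 5328 in WT livers. Its value in the authors' deposited table was 3.29 (SE 0.34, adjusted p = 2.5e-19 by the Wald test), and its interval of 2.61 to 3.96 lay above that of Hba-a1, 1.06 to 2.57.

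Because the copies can share reads, their sums are also given, which do not depend on how shared reads were split between copies. Had reads that match both copies been left out, the sums, ratios and shares below would miss them too. The alpha copies share more 50-base fragments than the beta copies, so such a loss could be unequal. The adult alpha genes summed to 3.61 times, and the adult beta genes to 3.43 times, their WT level in 4N livers. The adult alpha to adult beta ratio, per length of mRNA, was 0.964 in 4N livers and 0.907 in WT livers. With coding length in its place the ratio was 1.07 in 4N livers and 1.02 in WT livers. The 7 globins together took 3.65% of the summed means in 4N livers and 1.02% in WT livers. Hba-a2 made up 4.51% of adult alpha transcripts per length in 4N livers and 1.68% in WT livers. With coding length these shares were 3.61% in 4N livers and 1.33% in WT livers. Hbb-bt made up 19.7% of adult beta transcripts per length in 4N livers and 16.5% in WT livers. In 4N livers the order of levels per kilobase of mRNA was Hba-a1, Hbb-bs, Hbb-bt, Hba-a2, Hbb-y, Hba-x and Hbb-bh1. In WT livers the first 4 kept this order, and Hbb-bh1, Hba-x and Hbb-y followed. The embryonic levels per kilobase in 4N livers were 2048 normalized counts for Hbb-y, 1010 for Hba-x and 340.4 for Hbb-bh1, against 1.66 for Hbb-y, 7.495 for Hba-x and 30.1 for Hbb-bh1 in WT livers. Whether neighbours in this order differ beyond their spread was not tested, since the spread of a level is not known.

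Of the 3 regulators, Sox6 was higher in 4N livers, though not relative to the median of erythroid markers given further on, and Bcl11a and Zbtb7a did not pass the test. Sox6, an SRY-box factor that binds the Hbb-y promoter region in mice, had 12591 normalized counts in 4N livers and 6041 in WT livers. In the authors' deposited table its log2 fold change was 1.06 (SE 0.24, adjusted p = 1.3e-04 by the Wald test). It did not pass a Wald test against a 1.5-fold change (adjusted p = 0.45), in which 2.26% of genes were called higher. That test was computed here from the deposited fold changes and standard errors. Bcl11a, a zinc-finger repressor that is also needed by B lymphocytes, had 2140 normalized counts in 4N livers and 2037 in WT livers. Its value was 0.07 in the authors' deposited table (SE 0.26, adjusted p = 0.92 by the Wald test), with an interval of -0.43 to 0.57. Zbtb7a, a zinc-finger repressor expressed in many cell types, had 8385 normalized counts in 4N livers and 6204 in WT livers. The authors' deposited table placed it at 0.43 (SE 0.24, adjusted p = 0.24 by the Wald test), with an interval of -0.03 to 0.90.

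**Figure D2:**
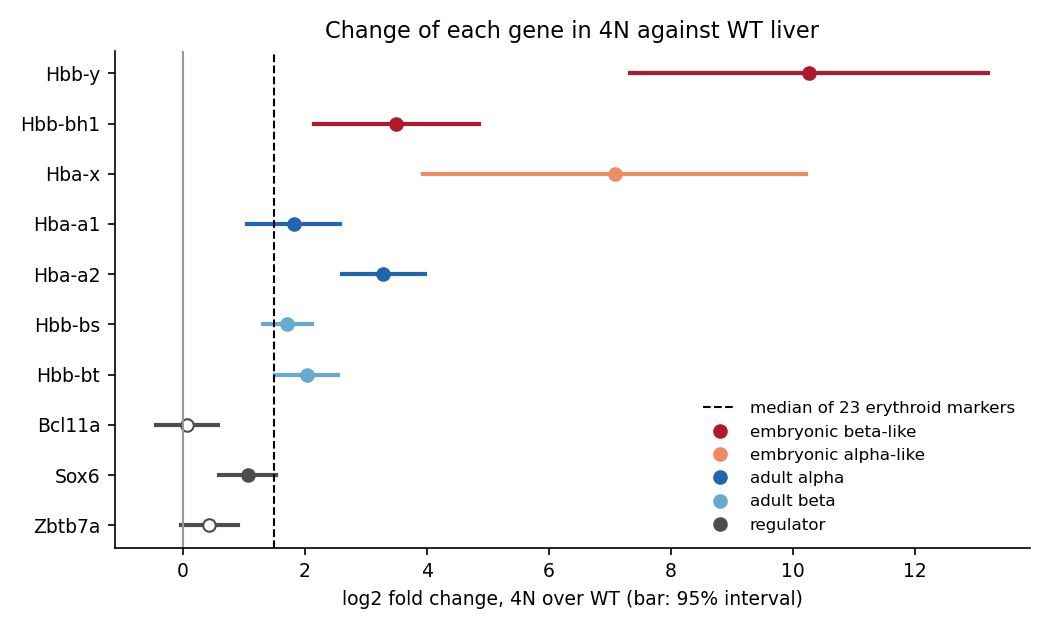
Log2 fold change of each gene, 4N over WT, with its 95% interval from the deposited standard error; filled circles passed the test and open ones did not. The dashed line is the median of the 23 erythroid markers, 1.501: the intervals of the 3 embryonic globins, of Hba-a2 and, narrowly (from 1.51), of Hbb-bt lie above it, and Bcl11a and Zbtb7a wholly below it.

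The globins rose together with other genes of red cells. Of 23 measured erythroid markers that are no globins, 22 were called higher and 0 lower, against 7.94% and 7.41% of all genes. These markers, too, were chosen with earlier results of these data known. Their log2 fold changes ranged from 0.23 to 3.91 with a median of 1.501, against -0.0010 over all genes. Their summed level was 1029806 normalized counts in 4N livers and 369992 in WT livers. In bulk tissue, more red cells and more RNA of these genes per red cell cannot be told apart. The lead genes by adjusted p were Tspo2, a translocator protein of red cell precursors (3.91, SE 0.41), Bpgm, the maker of 2,3-bisphosphoglycerate (2.08, SE 0.24), Trim10 (2.18, SE 0.25) and the blood group protein Kel (1.64, SE 0.20), all as log2 fold changes in the authors' deposited table.

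Set against this median, 3 of the 4 adult globins no longer passed the test, and Hba-a2 and the 3 embryonic globins still did. Hba-a2 shares 86.9% of its 50-base fragments with Hba-a1, so its separate value is uncertain. The 2 adult alpha genes summed changed by 1.85 on the log2 scale, against the median of 1.501. The marker Tspo2 lay 2.40 above the same median, higher than Hbb-bh1 and Hba-a2. After subtraction of 1.501, Hbb-bs lay at 0.21, Hba-a1 at 0.32 and Hbb-bt at 0.53 on the log2 scale, and the Wald test recentred in this way no longer called any of these 3 (adjusted p = 0.35, 0.48 and 0.071). The recentred test takes the median as a fixed value and uses only the gene's own standard error. The error of the median and its covariance with each gene are left out, so these p-values are a description only. Hba-a2 lay at 1.79, Hbb-bh1 at 2.00, Hba-x at 5.57 and Hbb-y at 8.76, and the recentred Wald test still called them higher, as it did 1.55% of all genes. The same subtraction put Sox6 at -0.44 (adjusted p = 0.088 by the recentred Wald test). It put Zbtb7a at -1.07 (adjusted p = 1.9e-05) and Bcl11a at -1.43 (adjusted p = 8.8e-08), both called lower by the recentred Wald test, as were 63.7% of all genes. A call in that direction was thus the more common outcome over the table, and is not particular to these regulators.

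**Figure D3:**
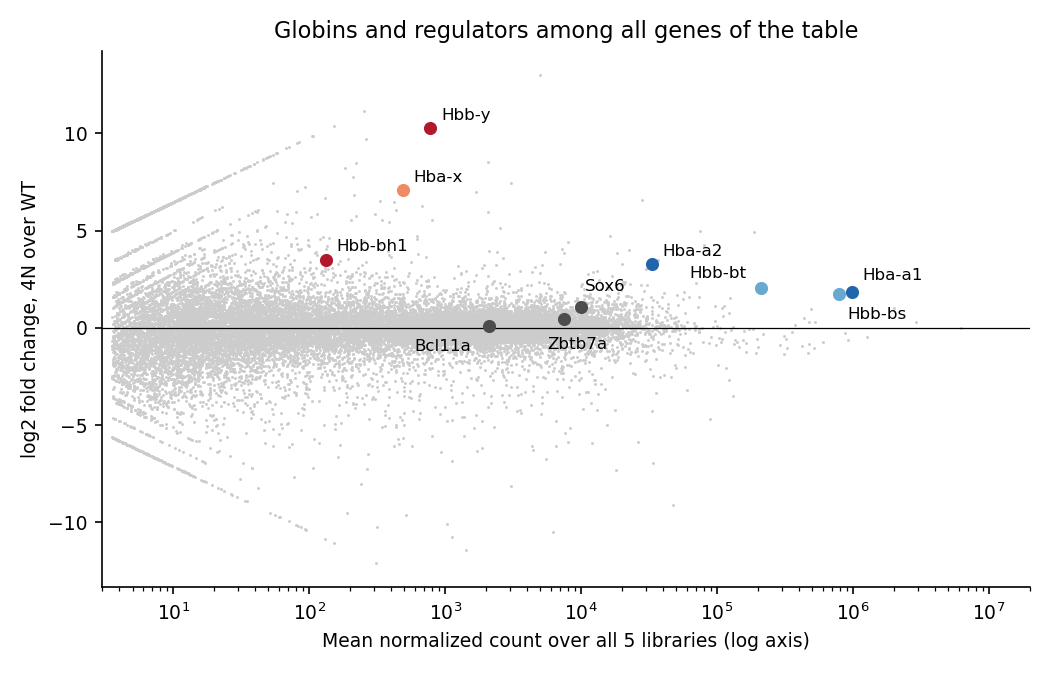
Log2 fold change, 4N over WT, against the mean normalized count over all 5 libraries (log axis) for the 23022 genes of the table (grey), with globins and regulators in colour. Hbb-y and Hba-x stand at 10.27 and 7.07 at means of 778 and 488, the adult globins lie at the abundant end between 1.71 and 3.29, and the regulators lie between 0.07 and 1.06; the slanting grey lines at low means are genes with no or few reads in 1 group.

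The spread between libraries that the standard errors imply was wide for Hbb-y and Hba-x. A negative binomial model with equal library sizes and a single spread common to both groups was assumed, so the spread is a model value. It was not observed between single libraries and cannot be split by group. Under this model, the standard error of Hba-x corresponds to a coefficient of variation (CV) of 118% within a group. The CV is 84.8% for Hbb-y, 49.1% for Hbb-bh1, 29.4% for Hba-a1, 26.1% for Hba-a2, 20.2% for Hbb-bt and 15.2% for Hbb-bs. The regulators lie between 17.8% and 19.4%. Among genes with a mean within 2-fold of its own, Hba-x had a higher implied spread than 99.8% of 3360 genes, and Hbb-y a higher one than 99.4% of 4055 genes. For Hbb-bh1 this share was 85.0%. Which libraries differ cannot be read from the table, and whether the embryonic globins were high in each of the 3 4N libraries was not tested. Counting error in the few WT reads makes up 44.2% of the variance of the Hbb-y fold change, and 6.74% of that of Hba-x.

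**Figure D4:**
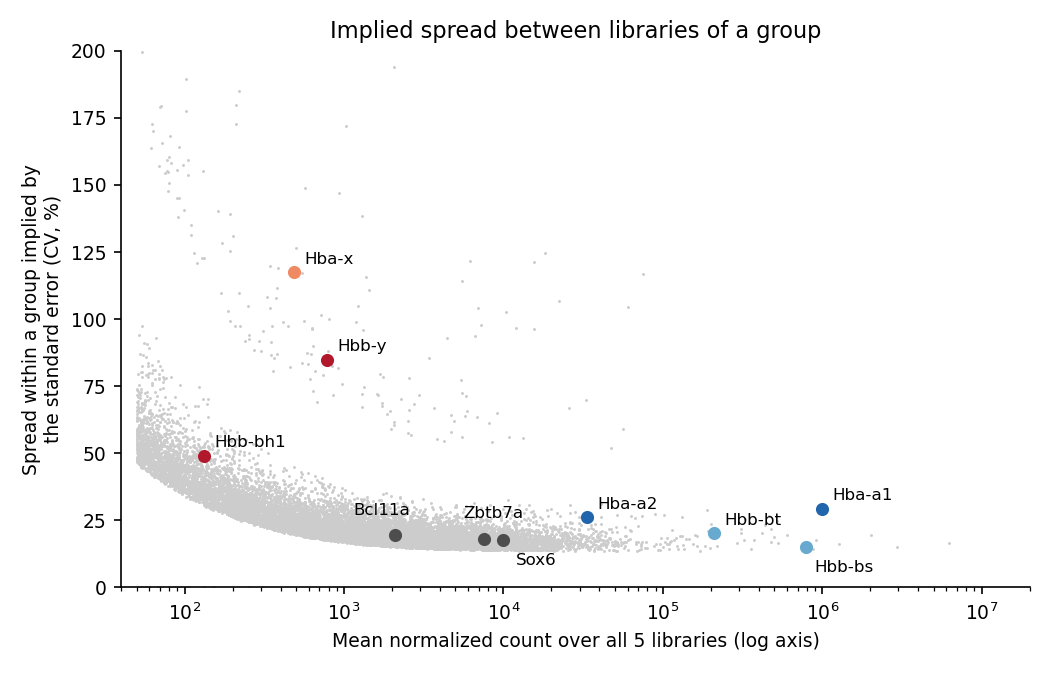
Spread within a group implied by the standard error (CV, percent) against the mean normalized count (log axis) for genes with a mean of at least 50 (grey; 13 of 15230 lie above 200% and are not drawn), with globins and regulators in colour. Hba-x at 118% and Hbb-y at 84.8% lie in the sparse band above the main cloud, and the adult globins lie between 15.2% and 29.4%.

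Of 7 other globin genes in the table, 2 were called higher, against 7.94% of all genes, and 0 lower. Their median log2 fold change was -0.59, and it turned to 1.48 over the 4 that had 50 or more normalized counts on average. The 2 were the theta-like genes of the alpha cluster. Hbq1b had 2877 normalized counts in 4N livers and 774 in WT livers, with a log2 fold change of 1.89 in the authors' deposited table (SE 0.30, adjusted p = 7.7e-09 by the Wald test). Hbq1a had 285 normalized counts in 4N livers and 46.5 in WT livers, with 2.61 in the authors' deposited table (SE 0.41, adjusted p = 1.3e-08 by the Wald test). The globins outside red cells and a pseudogene did not pass. Their values in the authors' deposited table were 1.06 for Adgb (SE 0.79), -0.59 for the ubiquitous Cygb (SE 0.50), -1.42 for the pseudogene Hba-ps4 (SE 1.64), -2.11 for neuroglobin Ngb (SE 2.51) and -4.26 for myoglobin Mb (SE 2.97). Of these, Mb, Ngb and Hba-ps4 had overall means of at most 10.7 normalized counts.

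Of 5 measured genes beside the alpha globin cluster, 2 were called higher, against 7.94% of all genes, and 0 lower, with a median of 0.68. Against a 1.5-fold change 0 of them were called, and relative to the erythroid markers 0 were called higher and 4 lower, against 63.7% of all genes lower. The authors' deposited table gave 1.18 for Snrnp25 (SE 0.26), a component of the minor spliceosome, and 0.68 for the podosome adaptor Sh3pxd2b (SE 0.23). Nprl3, whose introns hold enhancers of the alpha globin genes in mice, had 1418 normalized counts in 4N livers and 1665 in WT livers, and its value of -0.23 in the authors' deposited table (SE 0.23) did not pass. Neither did Mpg, a DNA repair glycosylase (0.78, SE 0.33), nor Rhbdf1 (0.20, SE 0.26), in the authors' deposited table.

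Of 19 erythroid transcription factors and partners, 8 were called higher (42.1%, against 7.94% of all genes) and 0 lower, with a median of 0.42. The lead genes in the authors' deposited table were Tal1 (1.17, SE 0.19), Lmo2 (1.22, SE 0.21) and Nfe2 (1.33, SE 0.24), which act at the globin enhancers, and Mafk, the partner of Nfe2 (1.10, SE 0.28). Klf1, the activator of adult beta globin and of Bcl11a, singled out after its values were seen, had 12159 normalized counts in 4N livers and 5791 in WT livers. Its log2 fold change was 1.07 in the authors' deposited table (SE 0.28, adjusted p = 0.0016 by the Wald test). Erythroid genes of the last maturation steps were called higher in 11 of 11 cases, against 7.94% of all genes, with a median of 1.69, and 6 of the 11 are also among the erythroid markers. They include Alas2, the first enzyme of erythroid heme synthesis (1.82, SE 0.22), and Xpo7, a nuclear exporter needed for the loss of the nucleus (1.69, SE 0.21) in the authors' deposited table. Of 6 genes of early erythroid progenitors, 1 was called higher (16.7%) and 0 lower, with a median of 0.11. It was Kit, the stem cell factor receptor (0.88, SE 0.22, in the authors' deposited table).

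Of 30 genes of the repressor complexes and chromatin enzymes linked to globin silencing, 3 were called higher (10%, against 7.94% of all genes), 1 lower (3.33%, against 7.41%) and 26 neither (86.7%, against 84.7%), with a median of 0.25. These shares are near the background, so the count is no result about the complexes. The subunits Rbbp7 (1.14, SE 0.23) and Hdac1 (0.81, SE 0.24) of the NuRD complex, a partner of Bcl11a, and the maintenance DNA methyltransferase Dnmt1 (0.59, SE 0.20) rose in the authors' deposited table, and the de novo enzyme Dnmt3b fell (-0.76, SE 0.25). Of 6 genes of the fetal-type programme, 2 were called higher, against 7.94% of all genes, and 0 lower, with a median of 0.74. These were the RNA-binding protein genes Igf2bp2 (2.37, SE 0.27) and Igf2bp1 (1.19, SE 0.24) in the authors' deposited table. Their regulators Lin28a and Lin28b, which block the let-7 microRNAs, did not pass, and the authors' deposited table gave 0.34 for Lin28a (SE 0.31) and -0.02 for Lin28b (SE 0.28). Igf2bp3 (0.06, SE 0.25) and Hmga2 (1.14, SE 0.45) did not pass either in the authors' deposited table. Relative to the erythroid markers, 1 of the 6 was called higher and 3 lower, against 1.55% and 63.7% of all genes. Igf2bp2 then lay at 0.86 and Igf2bp1 at -0.31.

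Genes that handle globin chains and free hemoglobin split. Of 8 measured, 5 were called higher (62.5%, against 7.94% of all genes) and 2 lower (25%, against 7.41%), with a median of 1.37. The rises were led by Bpgm and by Eif2ak1, the heme-regulated kinase that matches globin translation to heme (1.31, SE 0.19, in the authors' deposited table). Both falls were the plasma scavengers made by hepatocytes. Haptoglobin (Hp), which binds free hemoglobin, had 25997 normalized counts in 4N livers and 290516 in WT livers, with -3.48 in the authors' deposited table (SE 0.34, adjusted p = 1.1e-21 by the Wald test). Hemopexin (Hpx), which binds free heme, had 39013 normalized counts in 4N livers and 247777 in WT livers, with -2.67 in the authors' deposited table (SE 0.20, adjusted p = 4.1e-37 by the Wald test). The other rises, named after their values were seen, were Hmox1, the heme-degrading oxygenase (1.43, SE 0.22), Cd163, the macrophage receptor for hemoglobin bound to haptoglobin (1.51, SE 0.40), and the ubiquitin enzyme Ube2o, which removes unpaired alpha globin (2.03, SE 0.31), in the authors' deposited table.

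Markers of other cells of the liver were measured beside these genes. The background for their counts is 7.94% of all genes called higher and 7.41% lower. Of 10 B lineage markers, relevant to Bcl11a, 3 were called higher (30.0%) and 0 lower, with log2 fold changes from -0.998 to 1.72 and a median of -0.07. Their summed level was 8666 normalized counts in 4N livers and 7986 in WT livers. The 3 were Igll1 (1.72, SE 0.37) and Vpreb1 (1.30, SE 0.36), which form the surrogate light chain of B cell precursors, and Rag1 (0.92, SE 0.25), in the authors' deposited table. Of 8 megakaryocyte markers, 0 were called by the authors' Wald test and 2 had an unadjusted p under 0.05, with a median of -0.33. The most abundant were the platelet chemokine Ppbp (-0.51, SE 0.24) and Vwf (0.44, SE 0.27) in the authors' deposited table. Of 7 stem and progenitor markers, 2 were called higher (28.6%) and 1 lower (14.3%), namely Flt3 (1.49, SE 0.32), Kit and Hlf (-0.78, SE 0.23) in the authors' deposited table. Of 11 macrophage markers, 4 were called higher (36.4%) and 1 lower (9.09%), led by Vsig4 (-1.87, SE 0.39), Csf1r (0.87, SE 0.20), Cd68 (0.90, SE 0.27) and Adgre1 (0.79, SE 0.25) in the authors' deposited table. The 14 hepatocyte markers, which check the label of liver, had 0 higher and 4 lower (28.6%) with a median of -0.08, and their summed level was 13135007 normalized counts in 4N livers and 13289949 in WT livers. The 4 were Apoc3 (-4.07, SE 0.33), Rbp4 (-1.26, SE 0.25), Apoa2 (-0.71, SE 0.24) and Apoa1 (-0.84, SE 0.28) in the authors' deposited table. Most of the summed hepatocyte level was Alb (6210266 normalized counts in 4N livers, 6185296 in WT livers) and Trf (3165822 in 4N livers, 2577114 in WT livers). The sum therefore says little of the other hepatocyte markers. The part of any of these lists in the values of the globins and regulators was not tested.

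**Figure D5:**
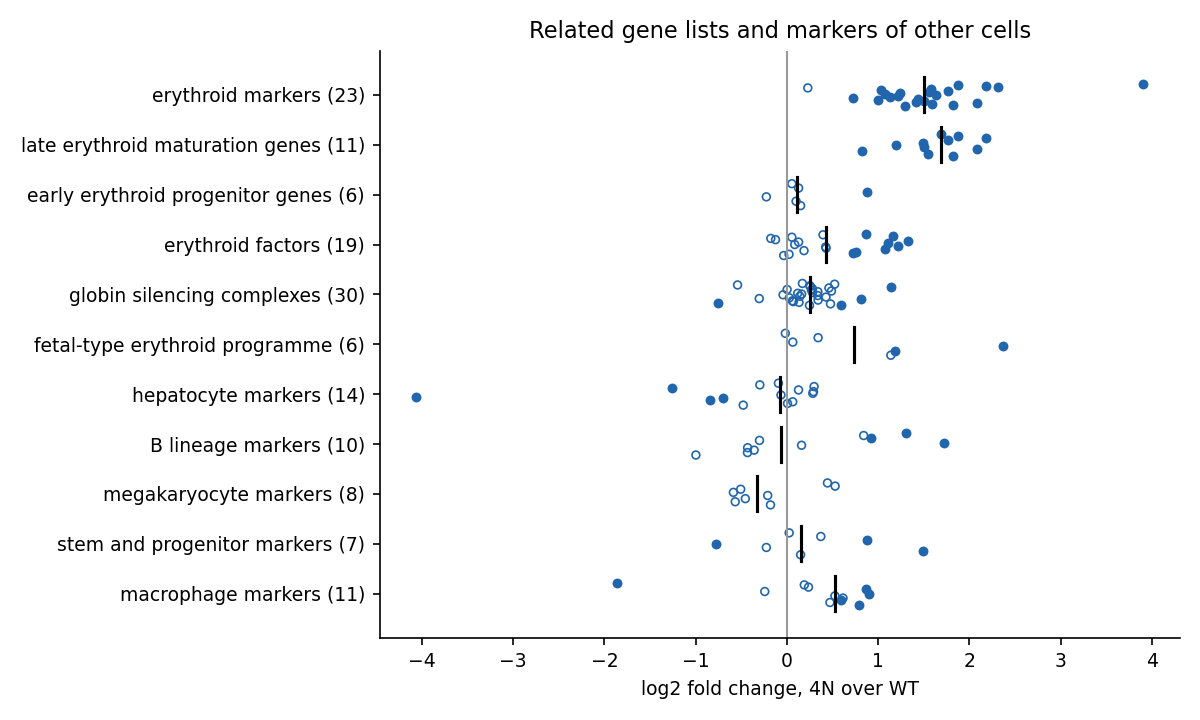
Log2 fold change, 4N over WT, of each measured gene in 11 lists (number of genes in brackets), with filled circles for genes that passed the test and a bar at each list's median. The erythroid markers and late maturation genes have medians of 1.501 and 1.69, the early progenitor genes 0.11 and the other cell types between -0.33 and 0.53.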

How the data were processed

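Polyadenylated RNA of livers was sequenced, per the labels' protocols, in 3 4N and 2 WT libraries. The submitters' processing notes name the genome build GRCm39. For the aligner and the counter, names were not given in the sources used here. Levels rest on a signal, the mean normalized count over all 5 libraries as deposited by the authors. The log2 fold change and its standard error, the Wald score, and the p-value with its Benjamini-Hochberg adjustment were also deposited by the authors, and their column names, per the file headers, are those of DESeq2. The table was checked to hold 23022 genes with 0 missing values, scores equal to fold change over standard error, and adjusted p-values that follow from the p-values. No sample was left out and no count model was refitted.

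Group means were solved from the overall mean and the fold change. The implied spread was solved from the standard error, assuming equal library sizes and a single spread common to both groups. These steps were run on simulated counts with equal library sizes and a known spread, which checks the algebra only. Outside empty groups, the simulated spreads and fold changes were smaller than those of Hbb-y and Hba-x, so such cases were not tested. Intervals are the fold change ± the normal 95% range of the standard error. Alternatives recentred the fold changes, changed the threshold (0.05 or 0.01), tested against a 1.5-fold change, set a minimum mean of 50, used a t reference or left out genes with no reads in 1 group. Sequences and lengths came from GENCODE M21 and RefSeq on GRCm38.p6, another build than the counts, so they serve for letters and lengths only. For each gene the longest protein-coding transcript of GENCODE M21 was used. Of the 10 genes, 9 matched a RefSeq promoter entry, and Hbb-bh1 did not.

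The 10 genes and the lists were chosen with earlier results of these data known. Named with values are these genes, the other globins, the listed neighbours of the alpha cluster, and up to 4 called genes with the smallest adjusted p of each list, or the 2 most abundant where none was called. Computation used scipy 1.17.1, pandas 2.3.3 and numpy 2.4.6 in Python 3.11.15, and figures were drawn with matplotlib 3.10.9.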

Additional observations from a re-analysis of the deposited data

How the results depend on the processing

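The sign and the call of each globin and regulator were the same under a minimum mean of 50 normalized counts, recentring on abundant genes (shift 0.05) or on hepatocyte markers (shift -0.08), and leaving out genes with no reads in 1 group. At adjusted p under 0.01 no call of these genes changed, and 1210 genes were called higher. Against a 1.5-fold change, Sox6 (1.06) lost its call at adjusted p = 0.45 by the Wald test, and 521 genes were called higher and 588 lower. When the Wald statistics were read against a t distribution with 3 degrees of freedom, 0 genes were called higher and 0 lower, with 2513 genes at an unadjusted p under 0.05 (5880 as deposited). The log2 fold changes of 10.27 (Hbb-y), 3.50 (Hbb-bh1), 7.07 (Hba-x), 1.82 (Hba-a1), 3.29 (Hba-a2), 1.71 (Hbb-bs), 2.03 (Hbb-bt) and 1.06 (Sox6) then had adjusted p-values between 0.37 and 0.40. Recentred on the erythroid markers, Hba-a1 (0.32), Hbb-bs (0.21) and Hbb-bt (0.53) lost their calls, and Bcl11a (-1.43), Sox6 (-0.44) and Zbtb7a (-1.07) changed sign, with 356 genes higher and 14657 lower, because 1.501 was taken from each value. Ratios between globins kept their order between the groups with equal weights and with coding length.

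No paired analysis was possible because the groups share no replicate numbers and no single-library values were used. No library was left out for that reason, and the share of 1 library in a result is unknown. With 3 and 2 libraries and unknown depth, the deposited standard errors are the only measure of error, and low WT levels rest on few reads.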

Other observations

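In the order of log2 fold changes among the 9442 genes with a mean at least that of Hbb-y, Hbb-y stood second. Above it lay Gm42047, a predicted gene with 8339 normalized counts in 4N livers and 1.02 in WT livers, at 12.99 in the authors' deposited table (SE 1.05). Below it lay Slc15a2, a peptide transporter, at 8.52 (SE 2.58), the predicted gene Gm9625 at 7.45 (SE 0.31) and Hsd3b6, a steroid dehydrogenase, at 7.01 (SE 1.07), all in the authors' deposited table. The standard errors of these genes ranged widely, with that of Hbb-y (1.496) between those of Hsd3b6 and Slc15a2.

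In the same order, Hbb-bs stood at place 131. The genes on either side were Dhrs7, Sema6b and Dnaja4, each at 1.72 in the authors' deposited table, and Pgam1, a glycolytic enzyme, at 1.70, Xpo7 at 1.69 and the glutamine transporter Slc1a5 at 1.67. A near place in this order is a description of 1 comparison.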
